A study of Mus musculus with 35 samples.

Results

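Mbp, Prx, Pmp22, Scn7a, Ngfr, Bdnf and Gdnf are 7 genes tied to Schwann cells, the glia of peripheral nerve, or to the growth factors that act between glia, axons and skin. They were taken by symbol from a table of 36106 genes, and all 7 were found. Their RNA was followed in bulk skin of C57BL/6J females, mice of an inbred strain aged 10 weeks. No allele or transgene is named in the labels. Radiated skin had received a single exposure of 25 Gy on the left flank and was shaved after it. At weeks 1, 2, 3 and 4, radiated skin and control skin gave 4 samples each. Sham skin came from 3 mice that got no radiation, and the sample titles name no week for it. That makes 35 samples and 19 mice. Samples of radiated and control skin with one week and number were taken as one mouse, and different weeks are different mice. The body site of the control skin is not stated in the labels. If it came from radiated mice, as the counts of samples and mice imply, it is not skin of an untouched animal.

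Myelinating Schwann cells wrap single axons in many layers of membrane, and nonmyelinating Schwann cells hold bundles of thin sensory fibres, which make up most of the nerve supply of skin. After nerve injury, Schwann cells are known to turn down myelin genes, to raise the low-affinity neurotrophin receptor Ngfr, and to release factors that keep neurons alive. The neurotrophins are small secreted proteins that signal through Trk receptors and Ngfr, while the GDNF family signals through Gfra co-receptors and the kinase Ret.

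The myelin genes Prx and Pmp22, both lower in radiated skin in week 3, and Ngfr and Gdnf, both lower in week 4, are shown by the bases just upstream of a transcription start. The sequences come from the RefSeq promoter table (GRCm38.p6), which holds 6 of the 7 genes by symbol. Capitals mark a CCAAT box (CCAAT, or ATTGG where it lies on the other strand) in Prx and Pmp22 and a TATA box (TATAAA) in Gdnf. The windows are chr7:27499074-27499323 on the plus strand for Prx, chr11:63128732-63128981 on the plus strand for Pmp22, chr11:95587736-95587948 on the minus strand for Ngfr and chr15:7809798-7810047 on the plus strand for Gdnf. Those of Prx, Pmp22 and Gdnf hold 250 bases. The Ngfr window holds 213, because bases annotated as exon of the gene were left out. The RefSeq start used for Gdnf lies upstream of the annotated gene start given below (7810846).
Prx: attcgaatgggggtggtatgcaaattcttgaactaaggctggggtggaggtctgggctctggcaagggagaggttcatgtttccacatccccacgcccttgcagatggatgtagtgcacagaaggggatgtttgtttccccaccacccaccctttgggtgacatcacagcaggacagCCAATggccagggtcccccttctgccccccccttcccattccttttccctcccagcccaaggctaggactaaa
Pmp22: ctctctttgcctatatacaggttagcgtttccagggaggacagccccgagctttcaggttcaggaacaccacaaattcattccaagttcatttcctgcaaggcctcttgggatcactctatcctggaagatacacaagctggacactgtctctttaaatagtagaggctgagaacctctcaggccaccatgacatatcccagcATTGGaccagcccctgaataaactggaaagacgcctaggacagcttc
Ngfr: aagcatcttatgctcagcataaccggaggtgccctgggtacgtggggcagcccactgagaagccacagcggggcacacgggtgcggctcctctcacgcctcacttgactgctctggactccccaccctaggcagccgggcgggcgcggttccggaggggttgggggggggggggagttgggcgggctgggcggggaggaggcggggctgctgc
Gdnf: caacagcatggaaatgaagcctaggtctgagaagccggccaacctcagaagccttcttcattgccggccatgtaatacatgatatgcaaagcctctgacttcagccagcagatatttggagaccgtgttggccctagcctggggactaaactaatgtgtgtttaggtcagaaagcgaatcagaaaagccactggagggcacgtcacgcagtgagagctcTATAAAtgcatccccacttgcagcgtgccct
The TATA box of Gdnf began 31 bases before the start in the table, one of 2 starts listed for that gene. Pmp22 has 4 listed starts, and Prx and Ngfr have 1 each. Over 250 bases upstream of 32851 starts, on both strands, a CCAAT box was present in 33.8% and a TATA box in 12.4%. A SOX core (ACAAAG or ACAATG or TCAAAG or TCAATG) was present in 39.4% and an EGR core (GTGGGCG) in 7.02%, and none of the 4 windows shown held either of these. Of the members not shown, 1 of 7 listed starts of Bdnf had a SOX core and the 1 listed start of Scn7a had an EGR core. No matches of different motifs overlapped in the windows shown.

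Each gene was readily counted, with at least 67 estimated counts in each sample. Levels are given as CPM, the share of a library's counts that fall on a gene, scaled to a fixed total, and per kilobase of exon where genes are compared with each other. Per kilobase, the mean over the 35 samples was highest for Pmp22 with 28.7 CPM, followed by Mbp with 10.6, Scn7a with 8.45, Prx with 5.80, Gdnf with 3.69, Ngfr with 3.12 and Bdnf with 1.11. In these means over all samples the myelin genes and Scn7a lay above the receptor and both ligands, but the order differed within some groups. In sham skin Ngfr (4.76 CPM per kilobase) lay above Scn7a (4.66) and Prx (4.40). In week 4 Gdnf lay above Prx in control skin (7.145 against 6.04) and in radiated skin (3.99 against 3.64). Gdnf had the widest range of levels between samples, 11.1-fold from lowest to highest, and Mbp the narrowest, 3.20-fold. Prx and Bdnf each overlap an antisense gene in their exons (Gm15541 over 300 bases and Gm45346 over 896 bases). Whether the counting used strand is not stated, so reads within those stretches cannot be assigned to one of the 2 genes with certainty. Transcripts of the Mbp locus made outside myelin (the golli forms) are also summed into its gene count. In bulk skin, fewer cells of a type and less RNA per cell cannot be told apart.

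**Figure D1:**
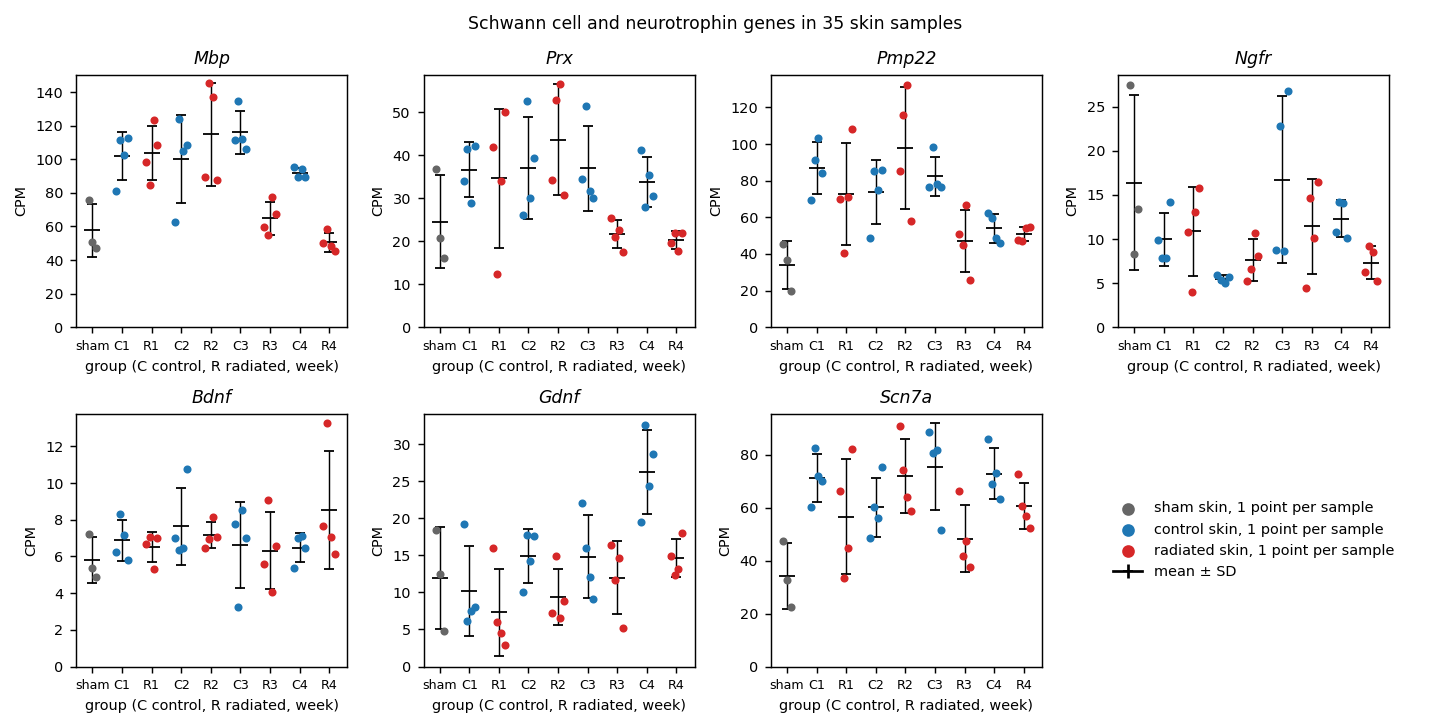
Expression of the 7 genes in CPM (y axes) in sham skin and in control (C) and radiated (R) skin of weeks 1 to 4 (x axes), 1 point per sample, with the mean and SD as bars. The radiated samples of Mbp lie at 54.8 to 77.6 CPM in week 3 and 45.4 to 58.4 in week 4, below each control sample of the same week.

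The library totals ran from 17362853 to 28487885 counts and none of the labels names a sequencing batch or date. Expression of other tissue components differed between the groups as well. The summed level of 8 skeletal muscle genes ran from 3519 to 9558 CPM in radiated and from 21030 to 39700 CPM in control skin of week 3, with 7 of 8 genes lower in radiated skin. In week 4 the same sum ran from 2112 to 4858 CPM and from 1772 to 26980 CPM, with 6 of 8 genes lower. The 6 fibroblast genes summed to 9316 to 17660 CPM in radiated and 1622 to 8879 CPM in control skin of week 3 (2 genes higher), and to 22930 to 36610 and 1686 to 3664 CPM in week 4 (6 genes higher). The 5 macrophage genes summed to 683 to 1739 and 270.0 to 736.9 CPM in week 3 (3 higher), and to 928.4 to 1389 and 166.8 to 247.6 CPM in week 4 (5 higher). No gene of these 3 lists was at 0 in any sample. In week 4, 4 of 5 endothelial genes were higher (sums of 320.9 to 417.6 CPM in radiated and 161.0 to 242.1 CPM in control skin). Of 6 melanocyte genes, 4 were higher and 1 lower (73.9 to 101 and 64.9 to 87.9 CPM), with up to 1 at 0 in a control sample. Of 6 tested hair follicle genes in a list of 8, 4 were higher (8.57 to 2392 and 16.9 to 20.9 CPM), with up to 1 at 0 in a sample of either group. Of 5 keratinocyte genes, 3 were lower and 1 higher (10860 to 15230 and 16260 to 18460 CPM). The T cell and the pericyte and smooth muscle lists each had 1 of 5 higher and 1 of 5 lower in week 4, and 0 of 4 adipocyte genes passed in edgeR. In week 3, 1 endothelial and 1 keratinocyte gene were higher, 1 pericyte and 1 adipocyte gene were lower, and 0 hair follicle, melanocyte or T cell genes passed. The part of all these lists in the results below was not tested.

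In weeks 1 and 2, radiated and control skin were compared to see whether nerve-associated genes moved early after the exposure. In edgeR, 0 of the 7 genes had an adjusted p under 0.05 in either week, the threshold used throughout. The share of all tested genes past that threshold was 0% in week 1 and 0.00577% in week 2. At an unadjusted p under 0.05 there were 0 of the 7 in week 1 and 1 in week 2, and DESeq2 called 0 in both. Log2 fold changes ran from -0.47 (Gdnf) to 0.14 (Ngfr) in week 1 and from -0.68 (Gdnf) to 0.47 (Ngfr) in week 2. Gdnf, which encodes the founding ligand of its family, was the gene with an unadjusted p under 0.05 (0.0425, adjusted p 0.344 in edgeR) and was lower in radiated skin in 4 of 4 pairs in both weeks, with overlapping groups.

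In week 3, Mbp, Prx and Pmp22, the genes of the myelin sheath, were lower in radiated than in control skin by 1.76-fold, 1.67-fold and 1.71-fold. These 3 of 7 were the genes past the threshold in edgeR, against 27.2% of all genes tested, and none of the 7 was higher. In week 4, Mbp and Prx were again lower, by 1.81-fold and 1.65-fold, together with Ngfr by 1.67-fold and Gdnf by 1.78-fold. That is 4 of 7 against 48.4% of all genes tested. The median log2 fold change of the 7 was -0.62 in week 3 and -0.73 in week 4, beside 0.08 and 0.02 for all genes. Bdnf and Scn7a passed in neither week (adjusted p 0.0684 and 0.119 for Scn7a in edgeR). These fits did not use the pairing of samples by mouse. With the mouse as a block in edgeR, Scn7a passed in both weeks (adjusted p 0.0352 and 0.0450).

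**Figure D2:**
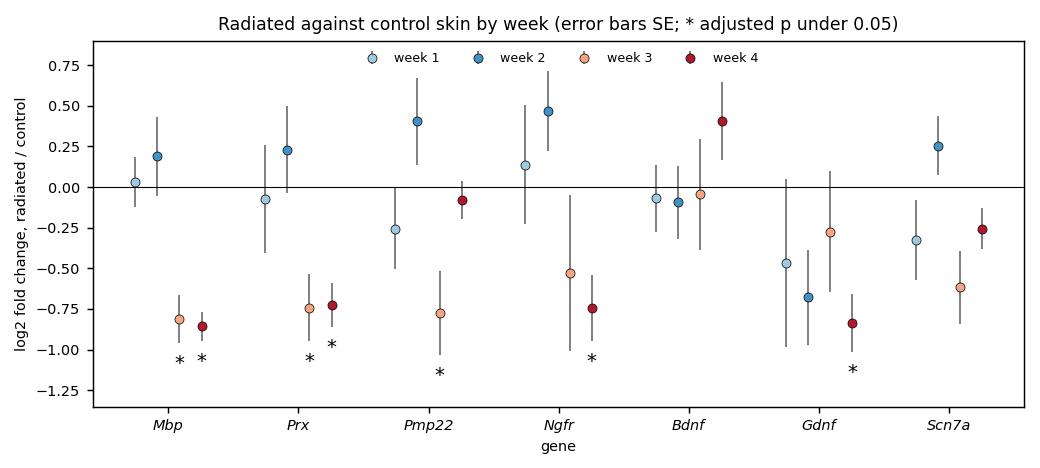
Log2 fold change of radiated against control skin (y axis) for each gene (x axis) and week (colour), with the standard error as bars and an asterisk at an adjusted p under 0.05. No gene has an asterisk in week 1 or 2, where the values run from -0.68 (Gdnf, week 2) to 0.47 (Ngfr, week 2), and in week 3 and week 4 Mbp lies at -0.81 and -0.86 and Prx at -0.74 and -0.73.

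Mbp (ENSMUSG00000041607, chromosome 18, 82475146 to 82585637, plus strand, GRCm38) encodes myelin basic protein, which holds the inner faces of the myelin membrane together. In week 3 it stood at 59.5, 54.8, 77.6 and 67.6 CPM in radiated samples 1 to 4 and at 111.2, 135.0, 111.9 and 106.4 CPM in the control samples. In week 4 it stood at 50.1, 58.4, 48.5 and 45.4 CPM in radiated and at 95.2, 89.5, 94.1 and 89.4 CPM in control samples. The groups did not overlap in either week and each radiated sample was below its own control. The log2 fold change was -0.81 (edgeR adjusted p 0.00460, SE 0.147) in week 3 and -0.86 (edgeR adjusted p 4.7e-05, SE 0.0885) in week 4, and it passed under each of the 14 alternatives tried in both weeks. In weeks 1 and 2 radiated skin had 104 ± 16.3 and 115 ± 30.5 CPM and control skin 102 ± 14.5 and 100 ± 26.2 CPM (SD, n = 4 each). Among the 9 groups, the 6 highest means of Mbp (92.1 to 116 CPM) were all control groups and radiated skin of weeks 1 and 2. They were followed by a gap wider than the SD of either neighbour, and then by radiated skin of week 3 (64.9), sham skin (57.6) and radiated skin of week 4 (50.6).

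Whether the gap between radiated and control skin itself changed over the 4 weeks was tested with an interaction of week and radiation, and Mbp was the single gene of the 7 past the threshold (adjusted p 0.00334 in edgeR), against 15.6% of all genes. Without replicate 3 of each group its adjusted p was 0.0664, and Prx, at 0.169 with all samples, passed without replicate 2 (0.0314). Within radiated skin, Mbp (adjusted p 0.00112 in edgeR) and Prx (0.0421) varied over the weeks, which is 2 of 7 against 23.3% of all genes. The variation of Prx was not past the threshold with total-count scaling (0.0686) or without replicate 1 (0.127), 3 (0.282) or 4 (0.0834), and Pmp22, at 0.0602 with all samples, passed without replicate 4 (0.0212) and in DESeq2 (adjusted p 0.0145).

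Prx (ENSMUSG00000053198, chromosome 7, 27499324 to 27520214, plus strand, GRCm38) encodes periaxin, a protein of myelinating Schwann cells that links the sheath to the surrounding basal lamina. In week 3 its levels were 25.4, 21.0, 22.7 and 17.5 CPM in radiated and 34.5, 51.5, 31.8 and 30.0 CPM in control samples. In week 4 they were 19.6, 21.8, 17.8 and 22.0 CPM in radiated and 41.2, 27.9, 35.3 and 30.6 CPM in control samples. All 8 radiated samples lay below all 8 control samples of these weeks. The log2 fold change was -0.74 (edgeR adjusted p 0.0269, SE 0.208) in week 3 and -0.73 (edgeR adjusted p 0.00177, SE 0.137) in week 4. The week 3 call was lost with total-count scaling (-0.50, adjusted p 0.0741) and without radiated sample 2 (0.0614), radiated sample 4 (0.0522), control sample 1 (0.0514) or control sample 2 (0.0598). The week 4 call was lost when all 35 samples were fitted together (0.0532). In earlier weeks Prx ran from 12.4 to 56.5 CPM in radiated and from 26.0 to 52.7 CPM in control skin, and both ends of the radiated range came from single samples (sample 2 of week 1 and sample 3 of week 2). In the order of the 9 group means, from 43.6 CPM in radiated skin of week 2 to 20.3 CPM in radiated skin of week 4, no pair of neighbours was further apart than their larger SD.

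Pmp22 (ENSMUSG00000018217, chromosome 11, 63128982 to 63159547, plus strand, GRCm38) encodes a membrane protein of compact myelin whose dosage is tied to inherited neuropathy, and it is also made outside nerve. It was lower in radiated skin in week 3 and close to control in week 4. The week 3 levels were 51.0, 44.9, 66.8 and 25.9 CPM in radiated and 76.4, 98.5, 78.1 and 76.6 CPM in control samples. Each radiated sample lay below each control sample, with radiated sample 4 the lowest. The log2 fold change was -0.78 (edgeR adjusted p 0.0495, SE 0.257). This call was lost with total-count scaling (-0.56, adjusted p 0.0856), without the filter on low counts (0.0532), and without radiated sample 1 (0.0740), radiated sample 2 (0.104) or any one of control samples 1 to 4 (0.0739 to 0.119). In week 4 the levels were 47.8, 47.0, 54.0 and 54.5 CPM in radiated and 62.2, 59.4, 48.4 and 45.9 CPM in control samples. These groups overlapped, with a log2 fold change of -0.08 (edgeR adjusted p 0.594, SE 0.114). Between week 3 and week 4 the control mean went from 82.4 to 54.0 CPM, while the radiated mean went from 47.1 to 50.8 CPM. Within control skin, Pmp22 varied over the weeks (adjusted p 0.0235 in edgeR).

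Scn7a (ENSMUSG00000034810, chromosome 2, 66673425 to 66784914, minus strand, GRCm38) encodes an atypical sodium channel known from Schwann cells, among them nonmyelinating ones. In week 3 it stood at 66.2, 41.7, 47.5 and 37.4 CPM in radiated and at 88.4, 80.5, 81.6 and 51.5 CPM in control samples. In week 4 it stood at 72.5, 60.7, 56.7 and 52.4 CPM in radiated and at 85.8, 68.9, 73.1 and 63.2 CPM in control samples. The groups overlapped in both weeks, and in both each radiated sample was below the control sample of its own number. On the log2 scale the change was -0.62 (edgeR adjusted p 0.0684, SE 0.225) in week 3 and -0.26 (edgeR adjusted p 0.119, SE 0.126) in week 4. With the mouse as a block, adjusted p was 0.0352 in week 3 (log2 fold change -0.62) and 0.0450 in week 4 (-0.26). Scn7a also passed in week 3 with DESeq2 (0.0388), with all 35 samples in one fit (0.0326), without radiated sample 1 (0.0241) and without control sample 4 (0.0372), and in week 4 without radiated sample 1 (0.0345).

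Ngfr (ENSMUSG00000000120, chromosome 11, 95568818 to 95587735, minus strand, GRCm38) encodes the low-affinity receptor that binds each of the neurotrophins, and it is found on immature and repair Schwann cells as well as on other skin cells. In week 4 it was lower in radiated skin, with 6.28, 9.20, 8.55 and 5.22 CPM against 10.8, 14.2, 14.1 and 10.1 CPM in control skin. The highest radiated sample lay below the lowest control sample. The log2 fold change was -0.74 (edgeR adjusted p 0.0131, SE 0.203), and the call was lost with all 35 samples in one fit (adjusted p 0.153). In week 3 the levels were uneven, with 4.44, 14.7, 10.1 and 16.4 CPM in radiated and 8.73, 22.8, 8.60 and 26.8 CPM in control samples. Samples 2 and 4 were the high ones in both kinds of skin of that week, and the groups overlapped (log2 fold change -0.53, edgeR adjusted p 0.437, SE 0.479). In control skin the level was 9.95 ± 3.00, 5.51 ± 0.409, 16.7 ± 9.47 and 12.3 ± 2.13 CPM in weeks 1 to 4 (SD, n = 4 each). This variation over the weeks passed the threshold (adjusted p 0.0143 in edgeR), and the same test on radiated skin gave 0.464.

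Gdnf (ENSMUSG00000022144, chromosome 15, 7810846 to 7837575, plus strand, GRCm38) encodes glial cell line-derived neurotrophic factor, a survival factor for sensory and motor neurons that Schwann cells can release. In week 4 it was at 14.9, 12.4, 13.2 and 18.1 CPM in radiated and at 19.5, 32.6, 24.4 and 28.6 CPM in control samples. Each radiated sample lay below each control sample. On the log2 scale the change was -0.84 (edgeR adjusted p 0.00371, SE 0.180), a call lost with all 35 samples in one fit (adjusted p 0.132). The control group of week 4 had the highest mean of the 9 groups, 26.2 CPM, and the gap to the next, control skin of week 2 with 14.9 CPM, was wider than either SD. The radiated mean of week 4, 14.6 CPM, was the highest of the 4 radiated means, which began at 7.34 CPM in week 1. Gdnf varied over the weeks in control skin (adjusted p 0.0370 in edgeR), and in radiated skin the same test gave 0.298. In control skin, 3 of the 7 genes (Pmp22, Ngfr and Gdnf) varied over the weeks, against 23.9% of all genes. Ngfr was no longer past the threshold without replicate 2 (0.133) or 4 (0.0727), and Pmp22 and Gdnf without replicate 2 (0.116 and 0.240), 3 (0.210 and 0.213) or 4 (0.139 and 0.185).

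Bdnf (ENSMUSG00000048482, chromosome 2, 109674700 to 109727007, plus strand, GRCm38) encodes brain-derived neurotrophic factor, the ligand of the receptor TrkB, which Ntrk2 encodes. It had the lowest level per kilobase of the 7 and passed in no comparison. Group means lay between 5.82 CPM in sham skin and 8.54 CPM in radiated skin of week 4, and no neighbours in that order were further apart than their larger SD. In week 4 it was at 7.68, 13.3, 7.04 and 6.16 CPM in radiated and at 5.34, 6.99, 7.09 and 6.46 CPM in control samples. Radiated sample 2 stood above the others and the remaining samples overlapped. On the log2 scale the change was 0.41 (edgeR adjusted p 0.188, SE 0.239), and 0.11 (adjusted p 0.605) without radiated sample 2. Ntrk2 did not pass in weeks 3 and 4 either (log2 fold change -0.17 and -0.06).

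Against sham skin, Mbp, Pmp22 and Scn7a were higher in control skin of weeks 1 and 3, and Scn7a also in week 4. Prx passed in no week (edgeR adjusted p 0.224, 0.354, 0.240 and 0.372 in weeks 1 to 4). Comparisons with sham skin share the same 3 sham samples, so the weeks are not independent of each other. Sham skin carries no week in its titles, so a difference in time of collection cannot be told apart from one of treatment. Mbp was at 75.5, 50.5 and 46.9 CPM in the sham samples and at 81.2, 112, 103 and 112 CPM in control skin of week 1. Pmp22 was at 45.2, 36.8 and 19.8 CPM in sham skin and at 69.4, 91.1, 103 and 84.2 CPM in that control group. Scn7a was at 47.4, 32.8 and 22.4 CPM in sham skin and at 60.2, 82.6, 71.7 and 70.2 CPM in that control group. For these 3 genes each control sample of weeks 1, 3 and 4 lay above all sham samples. Pmp22 and Scn7a did so in week 2 as well, and Gdnf in week 4. Sham sample 1 was the highest of the sham samples for each of the 3 genes. How many of all genes had groups without overlap was not counted, in this or any other comparison. In week 1 the log2 fold changes were 0.81 for Mbp, 1.35 for Pmp22 and 1.05 for Scn7a (adjusted p 0.0483, 0.0380 and 0.0457 in edgeR), 3 of 7 genes against 4.92% of all genes. In week 3 the same 3 of 7 passed against 11.4% of all genes, with 1.00, 1.27 and 1.13 (adjusted p 0.0160, 0.0200 and 0.0333 in edgeR). In week 4, Scn7a alone of the 7 passed (1.08, adjusted p 0.0466 in edgeR), against 3.65% of all genes.

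In week 2, 0 of the 7 passed between control and sham skin in edgeR, against 2.44% of all genes, although 4 had an unadjusted p under 0.05 and DESeq2 called 4. Ngfr was the one of these that was lower, at 5.94, 5.33, 5.02 and 5.73 CPM in control skin against 27.5, 8.32 and 13.4 CPM in sham skin (log2 fold change -1.59, adjusted p 0.0591 in edgeR). All 4 control samples lay below all sham samples. The sham calls rest on few samples. In week 1, none of the 3 genes passed without control sample 2, 3 or 4 or sham sample 2 or 3 (adjusted p 0.0779 to 0.143 in edgeR). In week 3, Mbp was lost without sham sample 2 (0.0550) or 3 (0.0533), Pmp22 without control sample 2 (0.0533) or sham sample 2 (0.0575), and Scn7a without control samples 1, 2 or 3 or sham samples 2 or 3 (0.0739 to 0.0965). In week 4, Scn7a was lost without any one control sample or sham samples 2 or 3 (0.0862 to 0.139). The 8 skeletal muscle genes summed to 8153 to 21770 CPM in sham skin and to 28590 to 47300 CPM in control skin of week 1, with 6 of 8 higher. In week 3 of control skin 3 of 8 were higher, and in week 4 0 of 8 (edgeR; the sum there was 1772 to 26980 CPM). The 8 hair follicle genes summed to 840 to 9265 CPM in sham skin and to 16.9 to 20.9 CPM in control skin of week 4, where 8 of 8 were lower. In week 1, 3 of 4 adipocyte genes were also higher in control skin (359.5 to 820.6 against 109.4 to 259.5 CPM in sham skin), as were 2 of 5 endothelial genes (202.5 to 237.9 against 85.2 to 140.9 CPM). In week 3, 4 of 8 hair follicle genes were lower (10.5 to 631 CPM), with up to 2 at 0 in a control sample. In week 4, 2 of 6 melanocyte genes were lower (64.9 to 87.9 against 109 to 265 CPM). Each remaining marker list of other cell types had at most 1 gene past the threshold in each of these 3 weeks. The part of all these lists in the calls was not tested.

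Radiated skin was set against the same sham samples. No gene of the 7 passed in week 1 (1.75% of all genes) or week 3 (18.2%) in edgeR. At an unadjusted p under 0.05 there were 2 in week 1 and 0 in week 3, and DESeq2 called 2 and 0. In week 2, Pmp22 was higher than in sham skin, at 85.1, 116, 132 and 57.8 CPM (log2 fold change 1.53, adjusted p 0.0415 in edgeR), 1 of 7 against 5.06% of all genes. In week 4, Scn7a was higher (log2 fold change 0.87, adjusted p 0.0317 in edgeR), 1 of 7 against 26.7% of all genes. All 4 radiated samples lay above all sham samples in both cases. Pmp22 in week 2 did not pass without radiated sample 2 or 3 or sham sample 2 or 3 (0.0810 to 0.156), and Scn7a in week 4 without radiated sample 1, 2 or 3 or sham sample 2 or 3 (at most 0.0888). Mbp in radiated skin of week 4 was close to sham skin (log2 fold change -0.14, edgeR adjusted p 0.606, SE 0.183), and so was Prx (-0.23, adjusted p 0.563, SE 0.267). Markers of other cells moved in the same comparisons. In week 2, 8 of 8 hair follicle genes were lower than in sham skin, with sums of 8.58 to 15.9 CPM against 840 to 9265 CPM and up to 2 of the 8 at 0 in a sample. In week 4, 7 of 8 skeletal muscle genes were lower (2112 to 4858 against 8153 to 21770 CPM). In that week 6 of 6 dermal fibroblast genes (22930 to 36610 against 3811 to 8617 CPM), 5 of 5 macrophage genes (928 to 1389 against 137 to 301.5 CPM) and 5 of 5 endothelial genes (321 to 418 against 85.2 to 141 CPM) were higher in edgeR. In week 4, 2 of 8 hair follicle genes were lower, and each remaining marker list of other cell types had at most 1 gene in either direction, while in week 2 no gene of those marker lists besides the hair follicle list passed in edgeR. Their part in the calls of Pmp22 and Scn7a was not tested.

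The other genes of the myelin sheath were compared between radiated and control skin of weeks 3 and 4. Of 10 tested genes in a list of 12, 3 were lower and 1 higher in week 3 (median log2 fold change -0.19), and 4 were lower and 1 higher in week 4 (-0.23). These are 4 and 5 genes of 10, where 27.2% and 48.4% of all genes tested passed in the same comparisons, and the shares of 27.2% and 48.4% apply to each list that follows. Drp2, which anchors periaxin at the Schwann cell surface, had -0.74 and -0.87, and Egr2, the factor that drives myelin genes, had -0.76 and -1.38, all past the threshold. Ugt8a, an enzyme that makes myelin galactolipids, fell by 1.65 and 0.83 on the log2 scale. Cldn19, a tight junction protein of Schwann cells, had -0.73 (edgeR adjusted p 0.0647) in week 3 and -0.88 (edgeR adjusted p 0.0133) in week 4. Gjb1, a gap junction gene that is also made by epithelia, was the one that rose, by 3.37 and 2.42 on the log2 scale.

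Of 10 Schwann lineage genes, 2 were lower in week 3 and 7 were lower and 1 higher in week 4 (median log2 fold change -0.25 and -0.83). The 2 of 10 in week 3 stand beside 27.2% of all genes, and the 8 of 10 in week 4 stand beside 48.4%. Against sham skin, the week 4 median was -0.08 for radiated skin (3 lower and 1 higher, beside 26.7% of all genes). For control skin of week 4 it was 0.61 (1 higher, beside 3.65%). In week 3 the medians against sham skin were -0.23 for radiated skin (2 lower, beside 18.2%) and 0.06 for control skin (0 passed in edgeR, beside 11.4%). Cdh19, a cadherin of Schwann cells and their precursors, fell from 17.7 ± 3.91 CPM in control to 3.78 ± 0.982 CPM in radiated skin of week 3, and from 24.5 ± 1.02 to 6.62 ± 1.90 CPM in week 4 (SD, n = 4 each). Its log2 fold change was -2.20 (edgeR adjusted p 0.00111, SE 0.253) and -1.88 (edgeR adjusted p 4.2e-05, SE 0.190). S100b, a calcium-binding protein of Schwann cells, fell by 1.57 and 0.86 on the log2 scale. Sox10, the lineage-defining factor, which melanocytes also make, had 0.59 (adjusted p 0.358 in edgeR) in week 3 and -0.56 (adjusted p 0.00967) in week 4. Ncam1, an adhesion molecule also made in muscle, was the one that rose, by 1.19 in week 4.

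Genes known from repair Schwann cells moved in both directions. Of 7 tested in a list of 8, 3 were higher in week 3 (median log2 fold change 1.30), and 4 were higher and 1 lower in week 4 (1.44), beside 27.2% and 48.4% of all genes. Artn, a GDNF family ligand, lay between 3.13 and 9.56 CPM in radiated and between 0.114 and 0.451 CPM in control skin of week 3. Lif, a cytokine released after nerve injury and by many other cells, rose by 3.65 and 2.26 on the log2 scale. Jun, the factor that drives the repair state and is active in many cell types, was 2.58 below control on the log2 scale in week 4. Ngfr, a marker of the same state, was lower in week 4 as described above. The 8 listed repair genes had a mean sum of 880.1 CPM in the week 4 control samples, which ran from 352.1 to 1301 CPM. Control means were 452.4, 207.3 and 257.4 CPM in weeks 1 to 3. The mean was 294.2 CPM in sham skin and 238.6 CPM in the week 4 radiated samples. The part of Jun in these sums was not tested.

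**Figure D3:**
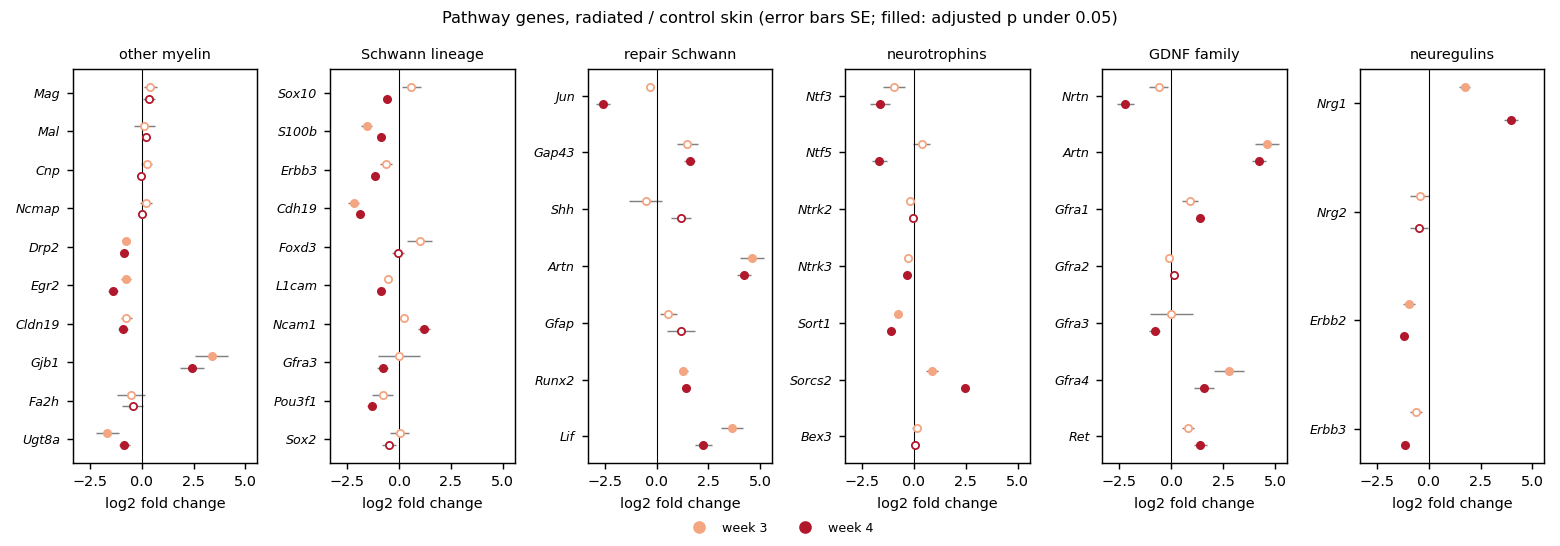
Log2 fold change of radiated against control skin (x axes) for the tested genes of 6 pathway lists, with the standard error as bars, in week 3 (orange) and week 4 (red). Filled points passed the threshold; Drp2 lies at -0.74 and -0.87 and Cdh19 at -2.20 and -1.88, while Nrg1 lies at 1.73 and 3.98.

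Among the other neurotrophin genes, 1 of 7 tested was higher and 1 lower in week 3, and 1 was higher and 4 lower in week 4 (median log2 fold change -0.17 and -0.33). The 2 of 7 in week 3 are close to the 27.2% of all genes, and the 5 of 7 in week 4 stand beside 48.4%. Sorcs2, a sortilin-family receptor that partners with Ngfr, rose by 0.88 and 2.47 on the log2 scale, and Sort1, another of that family, fell by 0.77 and 1.13. The ligands Ntf3 and Ntf5 fell by 1.65 and 1.66 in week 4.

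Of 7 tested genes in the GDNF family list of 8, 2 were higher in week 3, and 4 were higher and 2 lower in week 4 (median log2 fold change 0.82 and 1.37). Gfra1, the co-receptor that binds Gdnf, was at 64.0 ± 7.86 CPM in radiated and 24.8 ± 5.29 CPM in control skin of week 4 (SD, n = 4 each; log2 fold change 1.37, edgeR adjusted p 9.1e-05, SE 0.159). Ret, the signalling receptor, rose by 1.40 in the same week, in which Gdnf itself fell by 0.84. Nrtn, a related ligand, fell by 2.22. In the neuregulin list, 1 of 4 tested genes was higher and 1 lower in week 3, and 1 was higher and 2 lower in week 4 (median -0.54 and -0.80). Nrg1, the axonal signal that instructs myelination and is also made by keratinocytes and injured Schwann cells, was at 66.5, 85.2, 113 and 199.7 CPM in radiated and 7.67, 6.19, 8.84 and 6.80 CPM in control skin of week 4. The groups did not overlap (log2 fold change 3.98, edgeR adjusted p 1.5e-05, SE 0.339). Its receptors Erbb2 and Erbb3 fell by 1.19 and 1.14 in that week. Of 12 sensory axon genes, 6 were tested in week 3 and 5 in week 4 (median log2 fold change 0.65 and 0.30), and 2 were higher each time, Tubb3 and Uchl1, which other cells of skin can make.

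Across the 35 samples, the levels of the 7 genes fell into a related set and 3 genes apart. Pearson's r of log2 CPM was 0.80 between Mbp and Prx, 0.78 between Mbp and Pmp22, 0.79 between Prx and Pmp22, and 0.74, 0.67 and 0.54 between Scn7a and Pmp22, Prx and Mbp. Ngfr, Bdnf and Gdnf had r between -0.20 and 0.30 with every other member. All such values share the group structure and the libraries, and they are given as a description over 35 samples that are not independent draws. Among the 16398 genes that reached 1 CPM on average, those most like Prx included Drp2 (0.90) and Gatm (0.87), the enzyme of the first step of creatine synthesis. The nearest genes of Mbp were 4930523C07Rik (0.89), Il6ra (0.88) and Mtmr12 (0.88), those of Pmp22 were Bcl10, Glud1 and Cavin1 (0.84 to 0.85), and those of Scn7a were Ildr2, Jcad and Glud1 (0.80 to 0.82). None of these genes of Mbp, Pmp22 and Scn7a is on the myelin or Schwann lists, whereas Drp2 is on the myelin list. Those of Gdnf were Uhrf2, Zfp189 and Avpr1a (0.70 to 0.73), those of Ngfr were Pgr, Slc27a3 and Spon2 (0.65 to 0.70), and those of Bdnf were Gm12394, Gm47860 and Gm47356 (0.52 to 0.53).

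**Figure D4:**
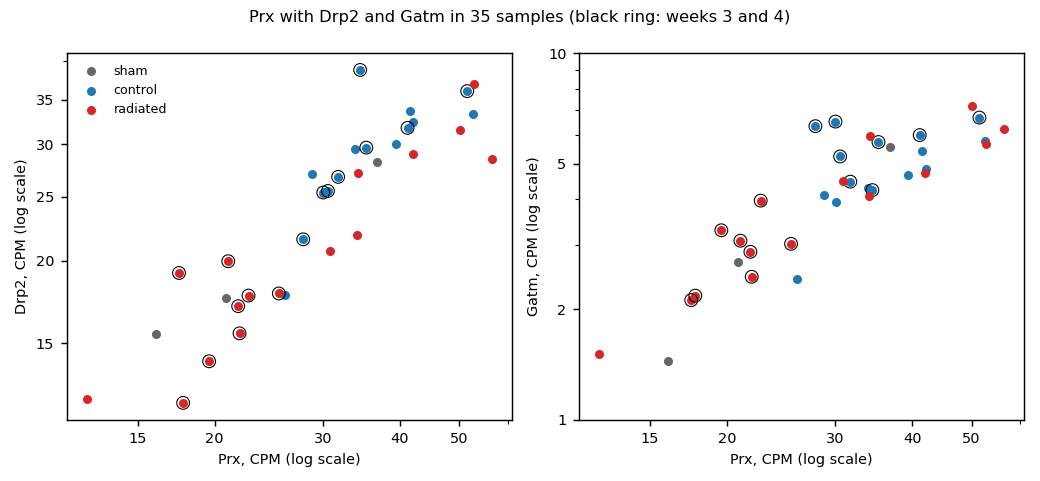
Drp2 (left y axis) and Gatm (right y axis) against Prx (x axes), in CPM on log axes, 1 point per sample for 35 samples, with rings around weeks 3 and 4. Ringed radiated samples lie at 17.5 to 25.4 CPM of Prx and ringed control samples at 27.9 to 51.5 CPM, along the same line as the other samples (r 0.90 with Drp2 and 0.87 with Gatm).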

How the data were processed

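RNA was measured by bulk sequencing of 35 skin samples. Biopsies were kept in RNAlater and RNA was extracted with an RNeasy kit, per the labels' protocols, which name Kallisto and DESeq2. The submitters' processing notes name Trim Galore 0.6.7, kallisto 0.46.2 and mm10, with no role or order. The authors deposited estimated counts per gene, which kallisto splits between similar transcripts; the step from transcripts to genes is not given in the sources used here. Between 51.8% and 53.5% of the values above 0 in a sample were not whole, and they were rounded here. Totals ran from 17362853 to 28487885 counts. No library was identical to another among 595 pairs, and the lowest reduced chi-square of the 51 pairs within a group was 21.2, so each counted as 1 replicate.

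Each comparison of 2 groups was fitted on its own with edgeR 4.0.16 (limma 3.58.1, R 4.3.3): filterByExpr, TMM scaling, the quasi-likelihood F test and Benjamini-Hochberg adjustment over all genes tested, with an adjusted p under 0.05 as threshold. Each of the 7 genes passed the filter in each comparison. The SE of a log2 fold change is its size over the square root of F. Interaction and time tests were F tests over weeks. CPM used TMM-scaled libraries of 19813 genes, and log2 CPM a prior count of 2. The code was tested on simulated data. Alternatives were DESeq2 1.42.0, RLE or total-count scaling in place of TMM, and no filter. Others were 1 fit of all 35 samples, the replicate number as a block, and leaving out each replicate.

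Radiated and control samples of one week and number were taken as one mouse, from the labels' numbering and the 19 mice of 35 samples; in weeks 1 to 4 the mean correlation of their deviations across genes was 0.07, 0.17, 0.05 and -0.02, against -0.02, -0.06, -0.02 and 0.01 for other numbers. With 3 sham samples and 16 pairs for 19 mice, samples of one group were taken as separate mice. The 7 genes and the gene lists were chosen with earlier results of these data known. All 7 genes are named whatever their values, list genes may be named, and for each of the 7 genes so are the 3 genes with the highest Pearson's r of log2 CPM. A few genes are not reported here and were left out of the list counts and of the genes most like Prx. Ngfrap1 and Bex3 are one gene. Gene positions and lengths are those of GENCODE M21 on GRCm38.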

Additional observations from a re-analysis of the deposited data

Results flagged for a closer look

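Pmp22 in control skin of week 3 was 98.5 CPM in sample 2, against 76.4 to 78.1 CPM in the other 3 samples, a gap that is large for the range of a group of 4. Such a gap appears by chance in about 1 in 20 groups, and 56 groups were looked at.

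The radiated-minus-control difference of Mbp varied over weeks 1 to 4 (adjusted p 0.00334 in edgeR). It was 0.03, 0.19, -0.81 and -0.86 on the log2 scale, each from an unpaired fit of 4 radiated and 4 control samples. Of the 4 pairs in each week, radiated skin was lower in 2, 1, 4 and 4. Without replicate 3 of each group the adjusted p was 0.0664.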

How the results depend on the processing

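Between radiated and control skin, the count of the 7 genes past the threshold stayed at 0 in weeks 1 and 2 under each alternative. In week 3 it went from 3 to 1 with total-count scaling and lay between 1 and 3 when single samples were left out, and in week 4 it went from 4 to 1 in a fit of all 35 samples. With the replicate number as a block it was 4 and 5, Scn7a being added each time; the block changed no other call between radiated and control skin. Against sham skin, where equal numbers are different mice, the block gave 2, 0, 1 and 0 genes for radiated skin of week 2 and control skin of weeks 1, 3 and 4. Total-count scaling gave 1 gene for control skin of week 1, 1 for control skin of week 2 and 1 that varied within radiated skin. Without the filter there were 3 genes for radiated skin of week 2 and 1 for control skin of week 2. DESeq2 and the fit of all samples each gave 2, 3 and 2 genes for radiated skin of weeks 1, 2 and 4 and 4 for control skin of week 2, and DESeq2 gave 3 for control skin of week 4. With single samples left out, the counts ran from 0 to 1, 0 to 3 and 0 to 2 for radiated skin of weeks 1, 2 and 4, from 0 to 4, 0 to 3, 0 to 4 and 0 to 4 for control skin of weeks 1 to 4, from 0 to 2 for the interaction, from 1 to 2 within radiated skin and from 0 to 3 within control skin. Total-count scaling shifted the median of all genes by 0.24 (log2) in week 3 and turned the sign of Prx (0.0514) and Bdnf (0.0604) in week 1, Bdnf (0.19) in week 3 and Pmp22 (0.00712) in week 4. Leaving out single samples gave log2 fold changes of both signs in week 1 for Mbp (-0.0635 to 0.114), Prx (-0.31 to 0.20), Ngfr (-0.0946 to 0.41), Bdnf (-0.15 to 0.0314) and Gdnf (-1.19 to 0.0377), and for Bdnf in week 2 (-0.18 to 0.11) and week 3 (-0.28 to 0.12) and Pmp22 in week 4 (-0.13 to 0.0201). None of these passed the threshold in any fit, and the cause was not tested. The count over all genes moved as well: between radiated and control skin of week 2 it was 1 gene, 641 with the block, 734 with DESeq2 and 544 in the fit of all samples, and between control and sham skin of week 1 it was 881 genes, 0 with the block and 2974 with DESeq2. By Spearman's rho, 8 of the 20 most similar genes stayed among the nearest 3. Each of the 7 genes had at least 67 counts in each sample and groups held 3 or 4 samples, and how far each limits the precision was not compared.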
